A study of Mus musculus with 28 samples.

Results

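The comparison described here is of the liver with the quadriceps, a thigh muscle, in young mice. It uses 6 of the series' 28 arrays, chosen by their labels: 3 of liver and 3 of quadriceps, all from C57BL/6J mice labelled female, kept in groups on standard chow and killed at 24 weeks, about 6 months, after an overnight fast. No allele, transgene or drug separates the groups, which by the labels differ in tissue alone. The series set out to record gene expression in metabolic tissues of young and old mice, and 6 further arrays of the same tissues at 24 months (103 weeks) serve below as other samples of the same contrast. All values are on the log2 scale, where 1 unit stands for a factor of 2, and every difference is liver minus quadriceps. Each of 19920 genes was represented by 1 probe set. Nothing in the labels states that the arrays of a group are of separate animals; the p-values then reflect only the spread among these samples, which may be technical. In whole tissue, fewer cells of a type and less RNA per cell cannot be told apart.

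Liver and skeletal muscle divide the work of fuel metabolism between them. Hepatocytes make most plasma proteins and bile acids, break down amino acids and foreign compounds, and during a fast release glucose and ketone bodies for other organs. Muscle fibres are packed with contractile filaments and with the membranes that release and take back calcium; they lack the enzyme that frees glucose, keep their glycogen for their own use and burn fatty acids and ketone bodies from the blood. For many enzymes and carriers the mouse genome holds separate genes whose products do the same step in these tissues, such as the liver and muscle forms of glycogen phosphorylase.

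The arrays were first set against their labels. Alb, which encodes serum albumin, lay at 14.16, 14.13 and 14.11 on the liver arrays and 10.13, 10.45 and 9.55 on the quadriceps arrays, and Myh4, the heavy chain of the fastest myosin, at 13.83, 13.79 and 13.70 on the quadriceps arrays and 5.37, 5.17 and 5.16 on the liver arrays. The tissue labels were thus borne out by these markers, but liver transcripts were not at the floor in muscle. As a floor, a dim level was set at the 95th percentile of 1027 olfactory receptor genes, which neither tissue is known to use much; it was 6.08 in liver and 5.93 in quadriceps. Alb, Ttr (transthyretin, 7.30, 7.40 and 6.99), Apoa1 (apolipoprotein A-I, 7.50, 7.55 and 7.29) and Cyp2e1 (an ethanol-oxidising cytochrome P450, 9.58, 10 and 8.25) lay above it on all 3 quadriceps arrays, while Cps1, the first enzyme of the urea cycle, lay below it at 5.88, 5.80 and 5.30. Over the 23 measured plasma protein genes, 12 or 13 lay above the dim level on each quadriceps array, with list means from 6.23 to 6.47, against 12.62 to 12.72 on the liver arrays. In the liver arrays Myh4 was dim, whereas Acta1, skeletal muscle actin, was at 6.87, 6.89 and 6.70 and Ckm, muscle creatine kinase, at 6.28, 6.41 and 6.51. The part of carried-over tissue in these low values was not tested.

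The sex label was not borne out. Xist, the RNA that coats the inactive X chromosome of female cells, lay below the dim level on all 6 arrays, at 4.89, 5.02 and 4.62 on the liver arrays and 4.20, 4.11 and 3.91 on the quadriceps arrays. Transcripts of 3 genes of the Y chromosome lay above it on all 6 arrays: Eif2s3y, a translation factor subunit, at 8.86, 9.07 and 9.02 on the liver arrays and 8.74, 8.72 and 8.53 on the quadriceps arrays, and the histone demethylase genes Kdm5d and Uty between 7.31 and 8.04. These values go against the female label in each of the 6 samples, and the mice are called labelled female for that reason. No result below compares the sexes.

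**Figure D1:**
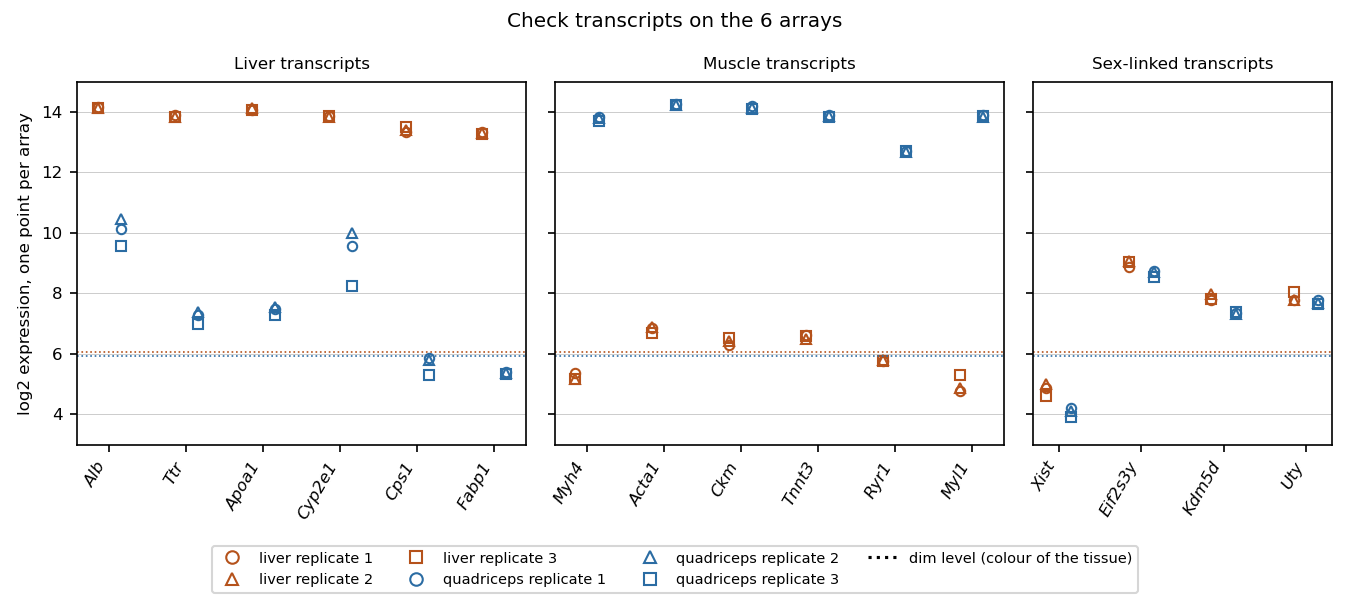
Log2 expression of liver, muscle and sex-linked check transcripts on the 6 arrays, 1 point per array, with the dim level of each tissue as a dotted line. Alb and Cyp2e1 stayed well above the dim level in quadriceps, Xist lay below it on all 6 arrays, and the Y-linked Eif2s3y, Kdm5d and Uty lay above it on all 6.

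In several genes quadriceps replicate 3 stood apart from the other 2 quadriceps arrays, while other genes rose in steps over the 3 arrays. Genes of slow fibres were high on replicate 3. Myh7, the slow myosin heavy chain, lay at 6.96, 6.89 and 9.35. Myl3, a slow myosin light chain, lay at 6, 7.22 and 10.31, and Tnnc1, slow troponin C, at 6.46, 6.63 and 9.39. Myh2, the heavy chain of fast oxidative fibres, rose in steps, at 10, 11.08 and 12.16, whereas Myh4, given above, was alike on the 3 arrays. Myoz2 (7.34, 8.78 and 10.63) and Ankrd2 (8.49, 9.97 and 11.75) were graded in the same way. For such genes replicates 1 and 2 also differed, and leaving out replicate 3 does not remove the spread. Adipocyte transcripts were low on replicate 3, with Adipoq (adiponectin) at 9.16, 8.94 and 7.03 and Retn (resistin) at 9.54, 9.75 and 7.64, and so was Cyp2e1. Hspa1a, an inducible heat shock protein, lay at 7.14, 7.21 and 8.64 on the liver arrays and 7.59, 7.79 and 10.10 on the quadriceps arrays, so that replicate 3 was the highest in both tissues. Cyp2e1 and Alb were also lowest on quadriceps replicate 3. Many results that rest on this array are given with and without it, and some with it only. What sets it apart was not tested.

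**Figure D2:**
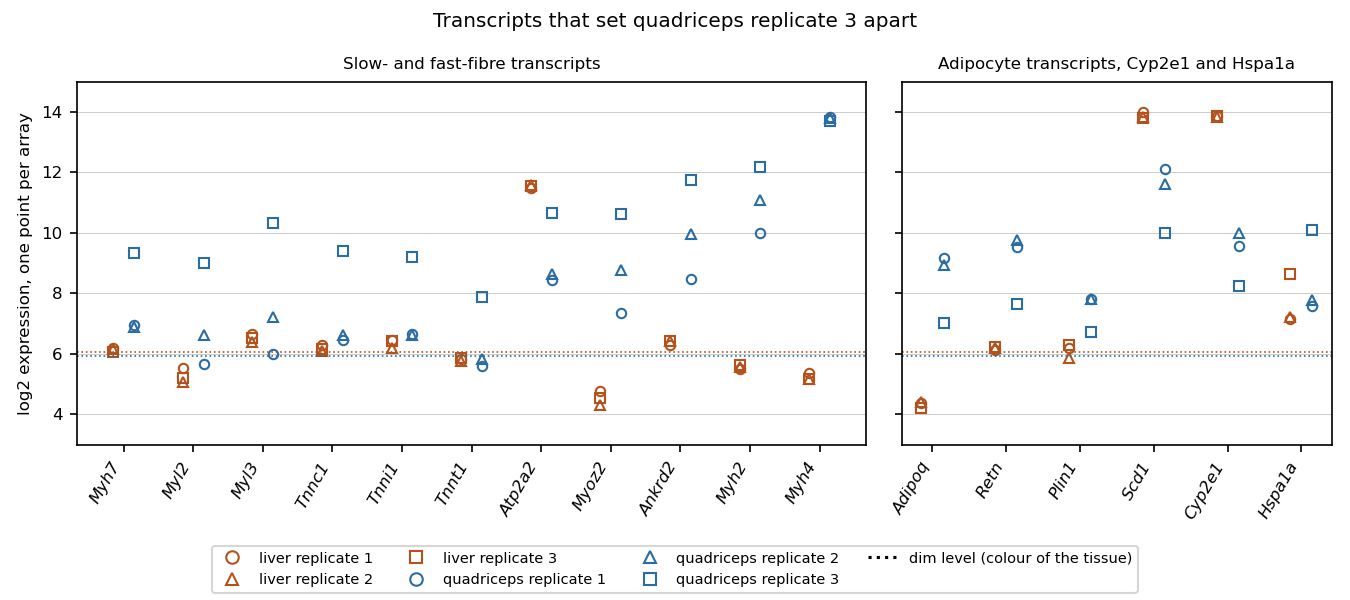
Log2 expression of fibre-type, adipocyte and stress transcripts on the 6 arrays, with quadriceps replicate 3 as blue squares. The squares lay highest among the quadriceps points for Myh7, Myl2, Myl3, Tnnc1, Tnni1, Tnnt1, Atp2a2, Myoz2, Ankrd2, Myh2 and Hspa1a, and lowest for Adipoq, Retn, Plin1, Scd1 and Cyp2e1, while Myh4 was alike on all 3.

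In other respects the arrays were even. Pearson r across genes, which are not independent replicates, ran from 0.9947 to 0.9958 within liver, from 0.9926 to 0.996 within quadriceps and from 0.742 to 0.7504 between the tissues. Array medians were 6.47 or 6.48 in liver and 6.36 to 6.39 in quadriceps, and the median SE of a gene's tissue difference was 0.085.

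To show sequence upstream of well-known genes of each tissue, 250 bases before the start of 6 genes, chosen for their roles and not by rank, are printed 5′ to 3′ on the gene's strand, from RefSeq's table of mouse promoters (build GRCm38.p6). The capitals mark matches to 5 motifs: GTTAAT, a core of sites bound by the hepatic factor HNF1; TATAAA, the TATA box; CAGCTG, an E-box of the kind bound by MyoD and its relatives; the CArG box, bound by serum response factor; and CATTCC, the MCAT element of muscle promoters. Both strands were searched, except for TATAAA, which was searched on the gene's strand only, and no match overlapped another. Alb, Fabp1 (liver fatty acid-binding protein) and G6pc (glucose-6-phosphatase) stand for liver; Myh4, Acta1 and Mylpf (the fast myosin regulatory light chain) stand for muscle. Their positions are chr5:90460620-90460869 on the plus strand for Alb, chr6:71199629-71199878 plus for Fabp1, chr11:101367466-101367715 plus for G6pc, chr11:67237562-67237811 plus for Myh4, chr8:123894776-123895025 minus for Acta1 and chr7:127211358-127211607 plus for Mylpf.
Alb: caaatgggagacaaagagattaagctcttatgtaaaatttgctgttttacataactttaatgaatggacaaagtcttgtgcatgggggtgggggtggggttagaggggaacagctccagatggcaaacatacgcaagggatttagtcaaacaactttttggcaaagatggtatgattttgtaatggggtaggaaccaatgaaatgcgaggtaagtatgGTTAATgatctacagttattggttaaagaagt
Fabp1: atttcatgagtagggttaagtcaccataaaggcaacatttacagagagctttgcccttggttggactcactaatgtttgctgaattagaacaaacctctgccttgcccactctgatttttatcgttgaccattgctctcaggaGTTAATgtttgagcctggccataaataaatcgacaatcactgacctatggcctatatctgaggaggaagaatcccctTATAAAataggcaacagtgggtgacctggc
G6pc: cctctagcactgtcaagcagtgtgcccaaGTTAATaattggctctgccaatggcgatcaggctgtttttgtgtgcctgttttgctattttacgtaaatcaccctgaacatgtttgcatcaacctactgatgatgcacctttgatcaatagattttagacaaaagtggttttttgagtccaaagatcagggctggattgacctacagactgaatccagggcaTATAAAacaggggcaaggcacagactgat
Myh4: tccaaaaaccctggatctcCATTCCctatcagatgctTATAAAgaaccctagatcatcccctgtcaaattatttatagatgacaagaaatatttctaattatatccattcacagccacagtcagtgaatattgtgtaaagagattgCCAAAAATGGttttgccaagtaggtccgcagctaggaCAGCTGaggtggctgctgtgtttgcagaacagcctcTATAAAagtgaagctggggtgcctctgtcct
Acta1: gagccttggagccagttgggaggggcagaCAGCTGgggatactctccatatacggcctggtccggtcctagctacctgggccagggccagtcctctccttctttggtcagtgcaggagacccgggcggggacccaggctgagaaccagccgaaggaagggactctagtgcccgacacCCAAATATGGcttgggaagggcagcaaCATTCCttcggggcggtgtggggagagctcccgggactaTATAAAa
Mylpf: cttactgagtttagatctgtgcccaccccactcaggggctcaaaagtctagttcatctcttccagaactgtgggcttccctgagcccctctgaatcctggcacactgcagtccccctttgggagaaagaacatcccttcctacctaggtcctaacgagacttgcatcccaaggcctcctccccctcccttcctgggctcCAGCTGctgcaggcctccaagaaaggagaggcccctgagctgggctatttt

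The 3 liver windows each held 1 GTTAAT, which began 32 bases before the start in Alb, 107 in Fabp1 and 221 in G6pc, and none held CAGCTG or a CArG box. The 3 muscle windows each held 1 CAGCTG, 67 bases before the start in Myh4, 221 in Acta1 and 51 in Mylpf, and none held GTTAAT. Myh4 and Acta1 each also held a CArG box, 104 and 73 bases before the start. Among all 15614 measured genes with a window, 5.6% held GTTAAT, 12.2% CAGCTG, 1.2% a CArG box, 11.3% CATTCC and 7.2% TATAAA. Of the 100 genes with the largest measured differences in favour of liver, 82 had a window: 18.3% of these held GTTAAT, 4.9% CAGCTG and 22.0% TATAAA. Of the 100 with the largest differences in favour of quadriceps, 76 had a window: 5.3% held GTTAAT, 35.5% CAGCTG, 7.9% a CArG box and 14.5% TATAAA. The share with CATTCC was 12.2% in the liver set and 19.7% in the quadriceps set, and 1.2% of the liver set held a CArG box. The shares describe letters in these windows and were not tested. The 6 printed genes were picked by hand as well-known examples, and their motifs may have played a part in the choice. Their counts therefore do not show how often a motif occurs in genes of either tissue.

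Most genes differed between the tissues. With limma, 13895 of 19920 genes (69.8%) passed an adjusted p of 0.05 (Benjamini-Hochberg), 8288 (41.6%) higher in liver and 5607 (28.1%) higher in quadriceps. The 3 arrays of one tissue lay wholly above those of the other for 14470 genes (72.6%). Because a small difference can pass this threshold, a second test asked whether a difference was larger than 2-fold, at the same adjusted p; it is called the 2-fold test below. It was passed by 3277 genes (16.5%), 2102 (10.6%) higher in liver and 1175 (5.9%) higher in quadriceps. The direction of the smaller differences depended on how the arrays were scaled. With quantile normalization the median difference of all genes moved from 0.10 to -0.043, and the share of calls that were higher in liver fell from 59.6% to 46.0% (6408 higher in liver, 7521 in quadriceps). Under the 2-fold test it went from 64.1% to 53.5% (1741 and 1511). Centring each array on its median gave 50.9% of calls higher in liver (7057 and 6819) and cyclic loess 51.7% (7184 and 6712). List medians below can be read against the median of all genes, 0.10, with quartiles of -0.283 and 0.54.

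Of the genes past the 2-fold test in liver, 630 were dim in quadriceps and 1431 above the dim level in both tissues; of those past it in quadriceps, 454 were dim in liver and 704 above the level in both. Measured differences, dim values included, of 16-fold or more were found in 426 genes higher in liver and 184 higher in quadriceps, and of 128-fold or more in 68 and 24. A value below the dim level was not shown to exceed background, so a fold that starts from one is given as at least the fold against the dim level. Log2 differences are given as measured, dim values included, unless a difference against the dim level is stated. Tdo2, the enzyme that opens the ring of tryptophan, lay at 12.81, 12.74 and 12.73 on the liver arrays and 4.28, 4.40 and 4.25 on the quadriceps arrays (8.45 (SE 0.072), at least 114-fold higher), and Fbp1, fructose bisphosphatase, differed by 8.03 (SE 0.10) (at least 182-fold higher). Tdo2 had the larger measured difference and Fbp1 the larger bound, so dim values give no order. Myl1, an essential light chain of fast myosin, lay at 13.89, 13.84 and 13.85 on the quadriceps arrays and 4.76, 4.88 and 5.31 on the liver arrays (-8.88 (SE 0.13), at least 220.4-fold higher in quadriceps). In Pvalb, a calcium buffer of fast fibres, the measured difference was smaller (-8.37) and the bound larger (at least 237-fold). In each of these genes the arrays of the tissues did not overlap, as in 72.6% of all genes.

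The 15 genes with the largest measured differences in liver were Tdo2 and those that follow; all 15 were dim in quadriceps, so their differences rest on values not shown to exceed background and give no rank. Ugt2b36 (8.45), Ugt2b1 (8.19) and Ugt3a2 (7.90) join sugars to hydrophobic compounds, Ces1c (8.38) and Aadac (7.99) split esters, and Cyp3a11 (8.21), Cyp4a31 (8.34), Cyp4a12a (7.97) and Cyp4a12b (7.91) are cytochromes P450. Fbp1 (8.03) and G6pc (7.91) are enzymes of glucose production, Elovl2 (8.03) lengthens polyunsaturated fatty acids, Fabp1 (7.92) binds fatty acids and Hrg (7.84) is a plasma glycoprotein. In quadriceps the 15 were Myl1 and Xirp2 (-8.64), Myh4 (-8.54), Pvalb (-8.37), Pygm (-8.21), Actn3 (-8.09), Myh1 (-8.06), Ttn (-7.86), Ckm (-7.73), Atp2a1 (-7.72), Ppp1r3a (-7.66), Myoz1 (-7.62), Mylpf (-7.56), Mybpc2 (-7.55) and Smpx (-7.54). All but Ckm and Atp2a1 were dim in liver. Ppp1r3a directs protein phosphatase 1 to glycogen, Pygm breaks glycogen down, Pvalb and Atp2a1 bind and pump calcium, and Ckm buffers ATP.

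**Figure D3:**
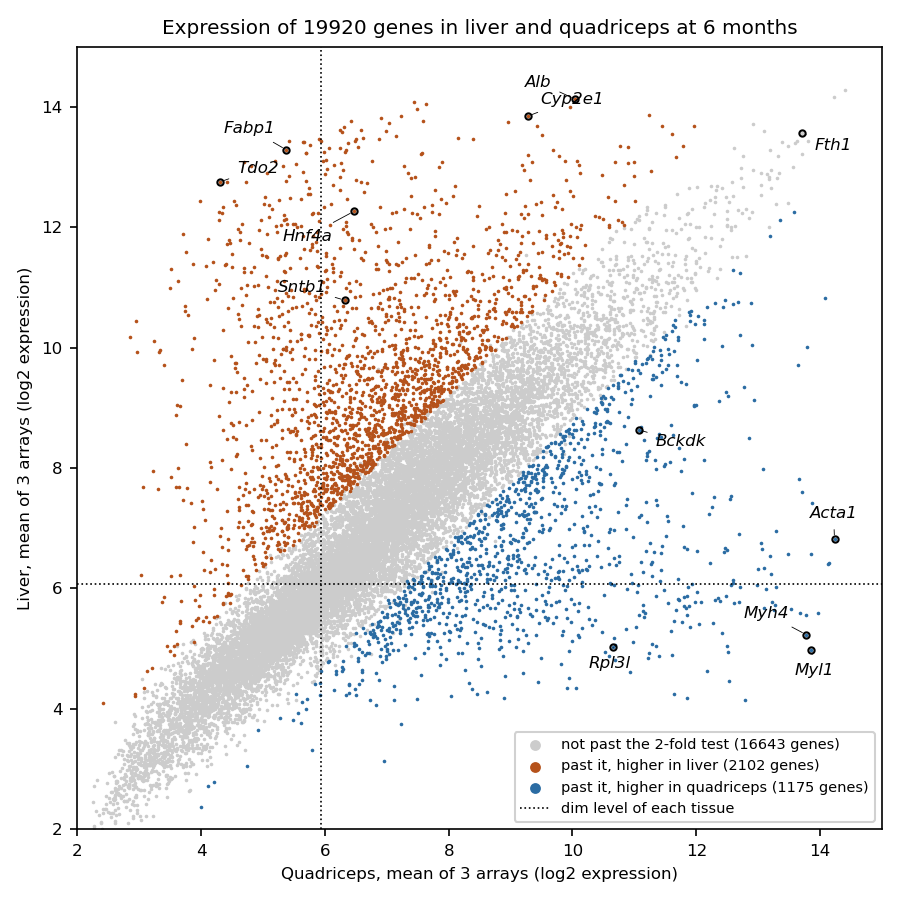
Mean log2 expression of 19920 genes in liver (y axis) and quadriceps (x axis), 3 arrays each; coloured points passed the 2-fold test (2102 higher in liver, 1175 higher in quadriceps) and dotted lines mark the dim levels. Tdo2 and Fabp1 were bright in liver and dim in quadriceps, Alb was the bright liver gene with a quadriceps level near 10, and Fth1 was high and alike in both.

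Genes of secreted proteins were higher in liver. All 23 measured plasma protein genes passed the 2-fold test in liver (median difference 6.49, range 3.52 to 7.84), as did all 12 apolipoprotein and lipoprotein assembly genes (median 6.30) and all 17 complement genes (median 5.91). With values below the dim level set to that level, these medians were 6.38, 6.30 and 5.40. Hrg lay at 12.87, 12.92 and 12.93 on the liver arrays and 5.02, 5.37 and 4.82 on the quadriceps arrays. Serpina1d, an alpha-1 antitrypsin gene with near-identical relatives that can share probes, differed by 7.69 (SE 0.11), and Apoh, which binds phospholipids in plasma, by 7.54 (SE 0.073). Alb had one of the smaller differences of its list, 4.09 (SE 0.19), 17.0-fold higher in liver, because its quadriceps values were 10.13, 10.45 and 9.55; without quadriceps replicate 3 the difference was 3.84.

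Of the apolipoproteins, Apob, the backbone of secreted lipoproteins, differed by 7.25 (SE 0.069) and Apoa4 by 6.87 (SE 0.16), with Apoa4 at 13.08, 13.62 and 13.75 on the liver arrays. Among 20 coagulation genes 19 passed the 2-fold test in liver (median 6.32). The largest measured differences were those of Kng1 (kininogen, 7.51), Fgg (the gamma chain of fibrinogen, 7.38), Plg (plasminogen, 7.13) and F9 (factor IX, 6.96). F9 was dim in quadriceps, and its difference against the dim level was 4.76. The exception was Tfpi, an inhibitor of coagulation that many endothelial cells make, with a difference of 0.84 that passed an adjusted p of 0.05 but not the 2-fold test. The largest measured differences among complement genes were those of C4bp (7.17), an inhibitor that binds C4b, Hc, which encodes C5 (7.07), C9 (6.64) and C6 (6.48). All of these were dim in quadriceps. Against the dim level they differed by 5.86, 6.24, 5.40 and 5.59, so the measured values give no order.

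The acute phase list, proteins whose plasma level changes in inflammation, had 15 of 16 past the 2-fold test, or 13 to 16 with 1 array left out (median 5.67). Hamp, the iron hormone hepcidin, lay at 13.36, 13.35 and 13.40 on the liver arrays and 6.06, 5.52 and 5.72 on the quadriceps arrays, and Crp, C-reactive protein, differed by 7.34 (SE 0.12). Of 15 hormones and binding proteins that liver releases, 14 passed it (median 4.39). They included Igf1 (4.39), its carrier subunit Igfals (3.20), Igfbp1, a fasting-induced binding protein (5.36), Inhbc (5.89), Lect2 (5.60) and Fgf21, a fasting hormone (2.08). Epo, erythropoietin, differed by 0.18 and was not called.

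Genes that handle bile acids and foreign compounds formed the next block. Of 20 bile acid genes 19 passed the 2-fold test in liver (median 6.09). Slc10a1, the carrier that takes bile acids up from blood, lay at 13.20, 13.23 and 13.27 on the liver arrays and 5.77, 5.68 and 5.63 on the quadriceps arrays; Cyp7a1, the rate-limiting enzyme of bile acid synthesis, differed by 6.30, Cyp8b1 by 6.83 and Abcb11, the export pump of the bile canaliculus, by 6.17. Cyp27a1, a mitochondrial enzyme of the alternative route that other tissues also use, differed by 1.07. Among 28 cytochromes P450 25 passed it (median 6.76, 5.50 with dim values set to the dim level). Cyp3a11 lay at 13.20, 13.01 and 12.85 on the liver arrays and 4.57, 4.68 and 5.18 on the quadriceps arrays, Cyp2j5 at 12.18, 12.13 and 12.04 on the liver arrays and 4.25, 4.36 and 4.27 on the quadriceps arrays and Cyp2c29 differed by 7.80 (SE 0.13). The 3 exceptions were Cyp2b9 (1.14), Cyp2b10 (0.43) and Cyp3a16 (0.21). Cyp2b9 is known to be more abundant in female than in male liver. Of 12 measured genes listed as male-biased in liver, Cyp4a12a and Cyp4a12b among them, all 12 passed the 2-fold test in liver (median 6.84). Of 11 listed as female-biased 3 passed it (median 0.63). With dim values set to the dim level these medians were 5.32 and 0.14. Cyp2e1 had a difference of 4.57 (SE 0.36) with quadriceps values that varied more than those of liver, and 4.06 without quadriceps replicate 3.

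Of 29 conjugating enzymes 27 passed the 2-fold test (median 4.63). The glucuronosyltransferase gene Ugt2b36 lay at 12.64, 12.39 and 12.27 on the liver arrays and 4.21, 4.03 and 3.72 on the quadriceps arrays and Ugt2b5 differed by 7.83 (SE 0.15). These families hold close copies whose probes can be shared, so their members are not fully separate measurements. Gstm2, a glutathione transferase, went the other way at -0.82, called at an adjusted p of 0.05 but not past the 2-fold test, and was the only member of the list called higher in quadriceps.

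Amino acid breakdown and the urea cycle, which turns the ammonia from it into urea, were also far higher in liver. 34 of 37 breakdown enzymes passed the 2-fold test (median 5.55), as did 7 of 8 urea cycle genes (median 5.42). Cps1 lay at 13.32, 13.41 and 13.51 on the liver arrays and 5.88, 5.80 and 5.30 on the quadriceps arrays and differed by 7.75 (SE 0.14). Otc, ornithine transcarbamylase, differed by 7.24 (SE 0.089) and Arg1, liver arginase, by 6.46 (SE 0.076). Among breakdown enzymes the largest measured differences after Tdo2 were those of Aass, of lysine (7.40), Mat1a, which makes S-adenosylmethionine from methionine (7.35), and Kynu, of kynurenine (7.15). The 3 that did not pass were Gcsh (1.31), a lipoyl carrier of the glycine cleavage system, Aldh6a1 (0.86), of valine, and Got1 (0.19), the cytosolic aspartate transaminase; Got1 was not called at all.

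Branched-chain amino acids are the usual exception to hepatic breakdown, since muscle starts it. The 19 genes of this path had a median of 0.47, 5 past the 2-fold test in liver and 1 in quadriceps. With quantile normalization the median was 0.18 and 2 genes passed the test on each side. The switch of the path was split: Bckdk, the kinase that turns the branched-chain dehydrogenase off, lay at 11.03, 11.11 and 11.07 on the quadriceps arrays and 8.53, 8.68 and 8.70 on the liver arrays (5.40-fold higher in quadriceps), and Ppm1k, the phosphatase that turns it on, at 10.20, 10.11 and 10.19 on the liver arrays and 7.51, 8.10 and 7.90 on the quadriceps arrays (5.03-fold higher in liver). The arrays of the tissues did not overlap for either gene, as for 72.6% of all genes.

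Of 12 genes of glucose production and release, 6 passed the 2-fold test in liver and 1 in quadriceps (median 1.86). Fbp1, fructose bisphosphatase, lay at 13.43, 13.41 and 13.49 on the liver arrays and 5.63, 5.38 and 5.23 on the quadriceps arrays, and G6pc, which frees glucose from its phosphate, at 13.13, 13.17 and 13.01 on the liver arrays and 5.28, 5.30 and 5.01 on the quadriceps arrays. Gcgr, the glucagon receptor, differed by 5.45 (SE 0.072) and Slc2a2, the carrier through which glucose leaves the hepatocyte, by 4.91 (SE 0.095). Pck1, which commits carbon to glucose and in adipocytes makes glycerol, lay at 13.05, 13.15 and 13.08 on the liver arrays and 8.07, 8.46 and 7.16 on the quadriceps arrays; its difference was 5.20, or 4.83 without quadriceps replicate 3, the array with low adipocyte transcripts. G6pc3, a widely expressed relative of G6pc, was the member past the 2-fold test in quadriceps, at 10.09, 9.93 and 10.05 on the quadriceps arrays and 8.20, 7.97 and 8.15 on the liver arrays. Pck2, the mitochondrial form, and Mdh1 were not called (0.10 and 0.15).

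Genes of fat and sterol synthesis were mostly higher in liver in these fasted mice, and no fed mice were compared. 12 of 20 lipogenic genes passed the 2-fold test in liver (median 2.08), among them Elovl5 (5.67), Fads2 (5.38) and Fads1 (4.63), which lengthen and desaturate fatty acids, and Fasn, fatty acid synthase (2.18). Scd1, stearoyl-CoA desaturase, lay at 13.99, 13.84 and 13.79 on the liver arrays and 12.11, 11.60 and 10 on the quadriceps arrays, so that its difference of 2.64 was smaller than that of Elovl5, and it was 2.02 without quadriceps replicate 3. Srebf1, the transcription factor of lipogenesis, differed by 0.25 and Thrsp by -0.22, neither called. Lpin1, a phosphatidate phosphatase, went the other way at 11.87, 12.03 and 12.07 on the quadriceps arrays and 8.71, 8.97 and 9.47 on the liver arrays (-2.94 (SE 0.17)).

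Of 19 cholesterol genes 13 passed it in liver (median 1.99), led by Lcat, a plasma enzyme that esterifies cholesterol (6.82 (SE 0.071)), Scarb1, the receptor for high-density lipoprotein (3.41), and the synthesis enzyme Msmo1 (3.18). Of 25 peroxisomal genes 20 passed it (median 3.29), among them Uox, urate oxidase (7.01 (SE 0.10)), Acaa1b (6.66) and Ehhadh (5.66) of peroxisomal fatty acid oxidation. Gnpat and Agps, the first enzymes of ether lipid synthesis, were called higher in quadriceps, at -1.15 and -0.32. Neither passed the 2-fold test.

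The transcription factors known to maintain the hepatocyte followed. 19 of 23 passed the 2-fold test in liver (median 3.48). Hnf4a lay at 12.24, 12.34 and 12.22 on the liver arrays and 6.43, 6.49 and 6.48 on the quadriceps arrays, and Nr1i3 and Nr1h4, the nuclear receptors CAR for foreign compounds and FXR for bile acids, differed by 5.94 and 5.33. Ppara, the fatty acid receptor that drives the fasting response, differed by 4.23, Cebpa by 3.48 and Foxa2 by 1.59. Zhx2 (-0.64) and Esrra (-0.25), which are widely expressed, were called higher in quadriceps without passing the 2-fold test. Of 23 other membrane proteins of liver 19 passed it, such as Aqp9, the glycerol channel (6.86), and Asgr1, the asialoglycoprotein receptor (5.48). Hjv, hemojuvelin, which raises hepcidin and is also made by muscle, passed it in quadriceps at 12.76, 12.64 and 12.61 on the quadriceps arrays and 10.80, 10.74 and 10.76 on the liver arrays.

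On the muscle side, the filaments came first. Of 28 genes of titin, the Z-disc and the M-band 26 passed the 2-fold test in quadriceps and none in liver (median -4.86). Ttn, the spring of the sarcomere, lay at 13.53, 13.55 and 13.49 on the quadriceps arrays and 5.66, 5.67 and 5.65 on the liver arrays (-7.86 (SE 0.064)), Xirp2 at 12.75, 12.78 and 12.82 on the quadriceps arrays and 4.24, 4.17 and 4.02 on the liver arrays and Myot, a Z-disc protein, at 13.03, 13.10 and 13.15 on the quadriceps arrays and 5.72, 5.59 and 5.71 on the liver arrays. The members that did not pass were Synpo2 (-1.06) and Csrp3 (-0.06, or 0.67 without quadriceps replicate 3). Csrp3, a Z-disc protein of slow and cardiac fibres, lay at 6.79, 8.17 and 9.66 on the quadriceps arrays and 7.98, 8.13 and 8.33 on the liver arrays, so that the quadriceps arrays reached from below the liver values to above them.

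Of 21 thin filament genes 15 passed it in quadriceps (median -5.93): Acta1 lay at 14.26, 14.23 and 14.21 on the quadriceps arrays and 6.87, 6.89 and 6.70 on the liver arrays (-7.41 (SE 0.076), 170.5-fold higher), and the fast troponins Tnnt3 and Tnni2 differed by -7.28 and -6.32. The slow troponins Tnni1, Tnnt1 and Tnnc1, at -1.13, -0.61 and -1.31, were not called, and their quadriceps values hung on replicate 3. Without that array the differences were -0.28, 0.11 and -0.36; the spread shrank, and Tnni1 and Tnnc1 were then called higher in quadriceps (limma adjusted p 0.035 and 0.0093). Actc1, cardiac actin, was past the 2-fold test with values of 12.28, 12.24 and 10.87 in quadriceps, lowest on replicate 3. Its difference was -5.10, or -5.56 without that array. Tpm3, a tropomyosin of slow fibres that non-muscle cells also make, was higher in liver by 1.24; it passed the 2-fold test when quadriceps replicate 3 was left out (1.33) and not with all arrays.

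Myosin heavy chains divided by fibre type. Of the 13 measured, 3 passed the 2-fold test in quadriceps: Myh4 (-8.54 (SE 0.082)), Myh1 (-8.06 (SE 0.21)) and Myh2 (-5.52 (SE 0.42)), the chains of fast fibres. Myh2 differed by -4.98 without quadriceps replicate 3. Myh1 lay at 11.98, 12.62 and 12.97 on the quadriceps arrays and 4.55, 4.40 and 4.43 on the liver arrays. Myh7, of slow fibres, differed by -1.60 (SE 0.55), called without passing the 2-fold test, and by -0.79 without quadriceps replicate 3. Myh9 (0.92) and Myh10 (0.63), the chains of non-muscle cells, were called higher in liver. Of 17 light chains and binding proteins 12 passed it in quadriceps (median -4.21), among them Mylpf at 12.64, 12.55 and 12.33 on the quadriceps arrays and 5, 5.02 and 4.81 on the liver arrays and Mybpc2, the fast myosin-binding protein C, at -7.55. The cardiac form Mybpc3, dim in quadriceps, was called higher in liver (0.39) without passing the 2-fold test.

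Of 29 genes of excitation-contraction coupling, which turns an action potential into calcium release, 21 passed the 2-fold test in quadriceps (median -4.19). Ryr1, the release channel, lay at 12.71, 12.67 and 12.70 on the quadriceps arrays and 5.75, 5.79 and 5.77 on the liver arrays, Atp2a1, the calcium pump of fast fibres, at 14.14, 14.17 and 14.11 on the quadriceps arrays and 6.54, 6.33 and 6.38 on the liver arrays, and Pvalb, a calcium buffer of fast fibres, at 14.01, 14.01 and 13.87 on the quadriceps arrays and 5.45, 5.69 and 5.64 on the liver arrays. Cacna1s, the voltage sensor, differed by -6.20 and Casq1, the calcium store protein, by -7.44. Atp2a2, the pump of slow fibres and of non-muscle reticulum, was higher in liver at 11.49, 11.58 and 11.55 on the liver arrays and 8.44, 8.63 and 10.66 on the quadriceps arrays (2.30 (SE 0.48)). It did not pass the 2-fold test with all arrays (limma adjusted p of 0.075 for that test) and passed it without quadriceps replicate 3, where the fold was 8.03 (SE 0.087 on the log2 scale).

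At the fibre surface, 15 of 19 genes passed it in quadriceps (median -2.86), among them Dmd, dystrophin, at 10.14, 10.11 and 10.09 on the quadriceps arrays and 5.21, 5.16 and 5.20 on the liver arrays, Sgca, alpha-sarcoglycan (-6.16), and Cmya5 (-6.59). Sntb1, a syntrophin, at 10.78, 10.84 and 10.75 on the liver arrays and 6.25, 6.41 and 6.30 on the quadriceps arrays, and Dtnb, a dystrobrevin of non-muscle tissues (2.09 (SE 0.081)), passed it in liver. At the neuromuscular junction 7 of 15 genes passed it in quadriceps, led by Musk, the receptor kinase that gathers acetylcholine receptors (-3.78), and the receptor subunits Chrne (-2.84), Chrnb1 (-2.65) and Chrna1 (-2.14). The fetal subunit Chrng differed by 0.06 and was not called. Agrn, a matrix proteoglycan, passed it in liver (1.30), though not with quantile normalization, centring or cyclic loess.

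Of 19 myogenic regulators and satellite cell genes 11 passed the 2-fold test in quadriceps (median -1.82). Myf6, the regulator of mature fibres, lay at 11.72, 11.73 and 11.72 on the quadriceps arrays and 5.63, 5.78 and 5.99 on the liver arrays, and Tbx15 (-6.53), Mef2c (-5.54) and Eya1 (-4.98) were the other large ones. Myod1 differed by -1.70, while Myog (-0.56), Myf5 (-1.18) and Pax7 of satellite cells (-0.81) were called without passing the 2-fold test. Fgfr4, which was listed as a gene of the muscle lineage and is also the hepatic receptor for FGF15, passed it in liver at 9.20, 9.24 and 9.19 on the liver arrays and 6.56, 6.63 and 6.63 on the quadriceps arrays. Of 20 genes of atrophy and growth control 10 passed it in quadriceps, among them the ubiquitin ligases Trim63 (11.72, 11.97 and 11.86 on the quadriceps arrays and 5.41, 5.60 and 5.65 on the liver arrays) and Fbxo32 (-5.79). Of 13 myokines 6 passed it, with the largest measured difference in Mstn, myostatin (-5.57 (SE 0.13)). Mstn was dim in liver, and its difference against the dim level was -3.84.

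Energy supply in muscle showed 3 layers. Of 13 genes of creatine and purine buffering 8 passed the 2-fold test in quadriceps, with Ckm at 14.18, 14.13 and 14.09 on the quadriceps arrays and 6.28, 6.41 and 6.51 on the liver arrays, Ampd1, muscle AMP deaminase (-7.16), and Ckmt2, mitochondrial creatine kinase (-6.72). The 3 past it in liver were the enzymes that make creatine, Gamt (11.32, 11.05 and 11.17 on the liver arrays and 9.11, 8.96 and 8.58 on the quadriceps arrays) and Gatm (1.51), and Ampd2 (1.47). Slc6a8, the creatine carrier, passed it in quadriceps (-2.18). Of 16 genes of glucose use 13 passed it in quadriceps (median -3.22), such as Slc2a4, the insulin-responsive glucose carrier (-4.84), and Eno3, muscle enolase (-6.12). Of 15 glycogen genes 9 passed it (median -2.65), with Pygm, muscle glycogen phosphorylase, at 13.82, 13.77 and 13.71 on the quadriceps arrays and 5.39, 5.58 and 5.70 on the liver arrays. Stbd1, which tethers glycogen to membranes, passed it in liver (1.98).

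Of 19 genes of oxygen and fatty acid handling 13 passed it in quadriceps (median -3.01), or 11 without quadriceps replicate 3. Mb, myoglobin, lay at 12.66, 12.97 and 13.38 on the quadriceps arrays and 6.42, 6.14 and 6.41 on the liver arrays and Fabp3, the muscle fatty acid-binding protein, at 11.56, 12.07 and 12.39 on the quadriceps arrays and 5.88, 6.04 and 5.89 on the liver arrays; both were highest on replicate 3. Lpl, which frees fatty acids from lipoproteins, differed by -4.10, Ucp3 by -5.51 and Oxct1, the enzyme that lets tissues burn ketone bodies and that liver lacks, by -4.40. Plin5, a lipid droplet protein, passed the 2-fold test in liver at 9.16, 9.36 and 9.21 on the liver arrays and 7.22, 7.51 and 7.90 on the quadriceps arrays. On the liver side of ketone metabolism, 3 of 4 measured synthesis genes passed it. Bdh1, which makes and also uses beta-hydroxybutyrate, lay at 10.88, 10.97 and 10.80 on the liver arrays and 6.45, 7.57 and 8.78 on the quadriceps arrays. Its quadriceps values were far apart and highest on replicate 3. Bdh1 differed by 3.28, or 3.87 without that array.

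**Figure D4:**
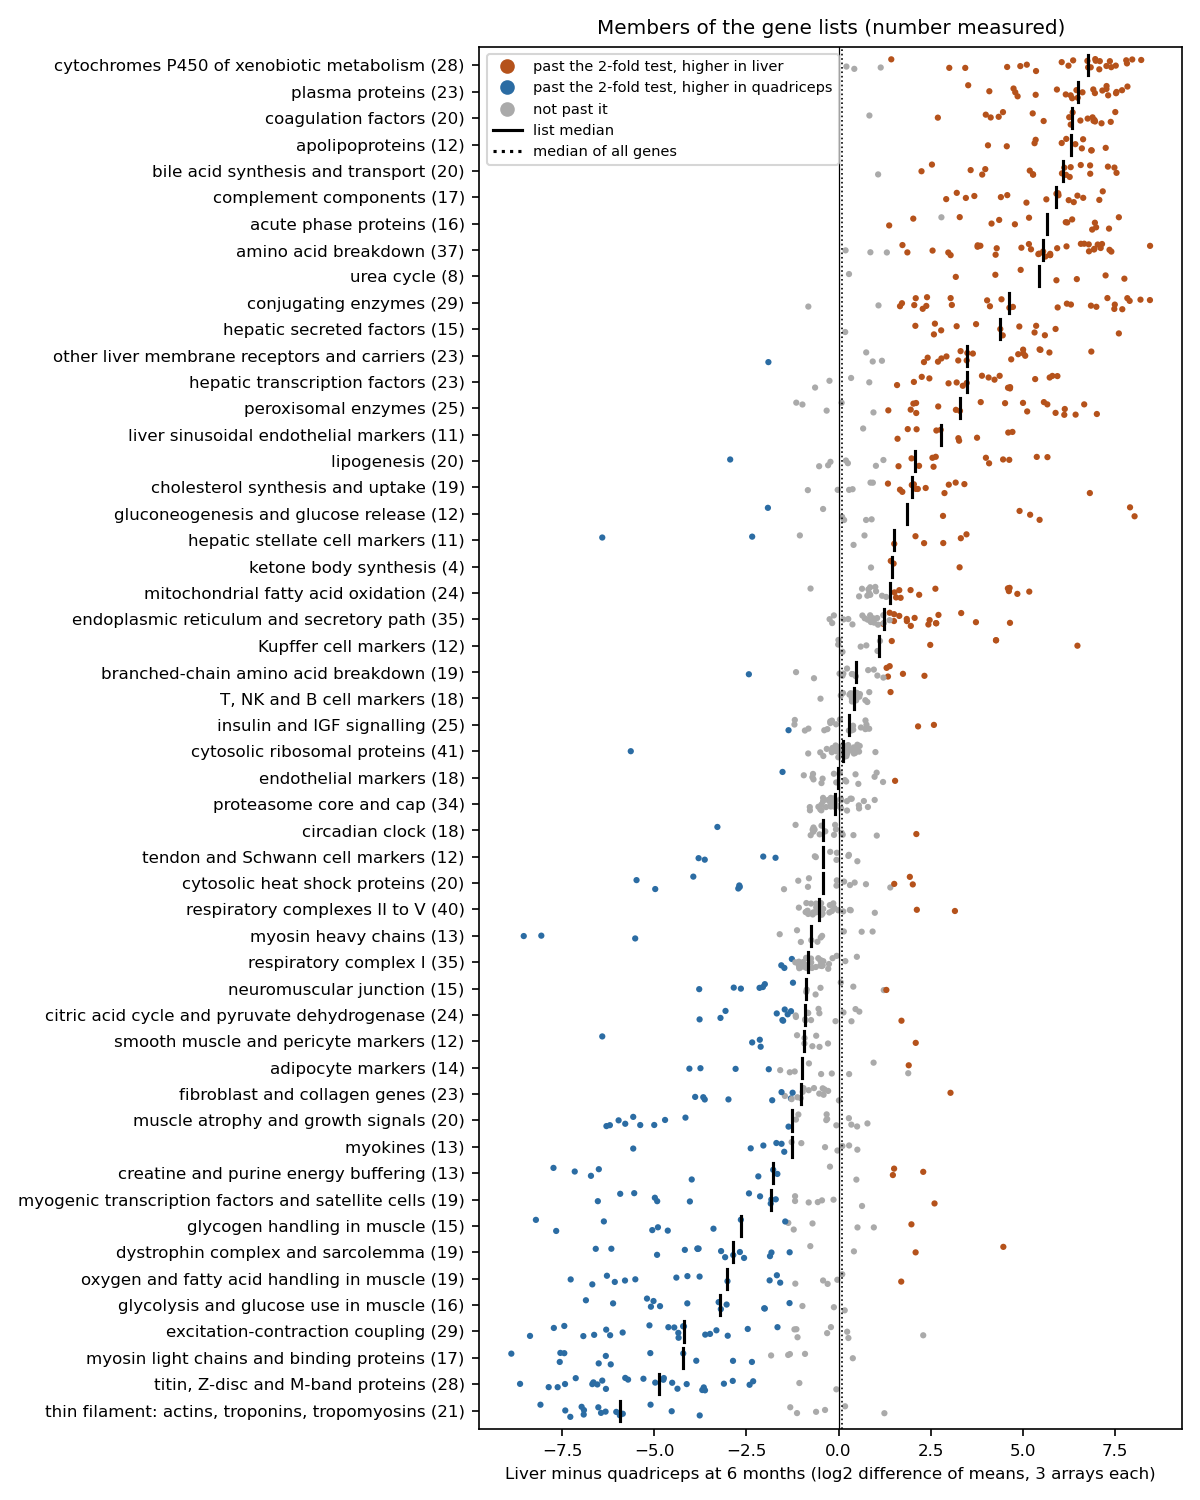
Tissue difference of each measured member of the gene lists (x axis, log2 liver minus quadriceps), lists ordered by their median (black bar), with colours for members past the 2-fold test and a dotted line at the median of all genes. Secreted and metabolic liver lists lay far right, filament lists far left, and ribosomal, proteasome and endothelial lists near 0.

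The shared machinery of energy metabolism differed in the direction of its parts. Complex I of the respiratory chain was modestly higher in quadriceps, with a median of -0.82. Of 35 subunits 31 were called higher there and 2 higher in liver, and 3 passed the 2-fold test in quadriceps. Of all genes, 28.1% were called higher in quadriceps and 41.6% higher in liver, and 5.9% passed the 2-fold test in quadriceps. Ndufb5 lay at 11.48, 11.51 and 11.62 on the quadriceps arrays and 9.93, 9.89 and 10.13 on the liver arrays (2.93-fold). With quantile normalization the median was -1.11 and 10 subunits passed the 2-fold test. Of 40 subunits of complexes II to V 31 were called higher in quadriceps and 5 in liver (median -0.53). The 2 past the 2-fold test, Cox6a1 (11.19, 11.17 and 11.17 on the liver arrays and 7.94, 8.11 and 8.01 on the quadriceps arrays) and Cox8a (11.95, 11.94 and 11.99 on the liver arrays and 9.79, 9.85 and 9.87 on the quadriceps arrays), were higher in liver and are the liver forms of subunits whose muscle forms, Cox6a2 and Cox8b, differed by -6.28 and -7.27. These muscle forms, and Cox7a1 (-5.79), were not on this list, whose lowest difference was -1.08. The list's counts and median therefore leave them out, and that only liver forms passed the 2-fold test follows from its membership.

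Of 24 genes of the citric acid cycle and pyruvate dehydrogenase 9 passed the 2-fold test in quadriceps and 1 in liver. Idh3a, a subunit of isocitrate dehydrogenase, differed by -3.07 (SE 0.081) and Cs, citrate synthase, by -1.68. Pdk4 and Pdp1, the kinase that blocks and the phosphatase that frees pyruvate dehydrogenase, were both higher in quadriceps: Pdk4 lay at 13.72, 13.81 and 13.83 on the quadriceps arrays and 10.03, 10.64 and 9.38 on the liver arrays and Pdp1 at 10.47, 10.37 and 10.33 on the quadriceps arrays and 7.16, 7.16 and 7.24 on the liver arrays. Suclg2, the GTP-forming subunit of succinyl-CoA ligase, passed it in liver (1.71). In contrast to the listed respiratory chain subunits, most listed genes of mitochondrial fatty acid oxidation were higher in liver. Of 24 genes, 23 were called higher there, beside 41.6% of all genes. The 2-fold test was passed in liver by 12, beside 10.6% of all genes (list median 1.40). The largest measured differences were those of the acyl-CoA synthetases Acsl5 (5.17), Acsm3 (4.85), Acsm5 (4.64) and Acsm1 (4.62) and the liver form of the carnitine transferase, Cpt1a (4.59). Enzymes of the oxidation spiral differed less, such as Acadm (0.86) and Hadha (0.81), and Crat, carnitine acetyltransferase, was called higher in quadriceps (-0.76). Crat had the lowest difference of this list, which holds liver forms such as Cpt1a. The list's counts and median therefore depend in part on its membership.

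Related genes listed as a liver form and a muscle form mostly went opposite ways. Of 39 pairs listed, both genes were measured in 28. Besides enzymes and carriers these include an IP3 receptor and a ryanodine receptor (Itpr2 and Ryr1) and alpha-actinins (Actn4 and Actn3). In 18 pairs the liver form passed the 2-fold test in liver and the muscle form in quadriceps, and in 6 more the forms were called in opposite directions with 1 of them short of the 2-fold test. In all, 21 liver forms and 25 muscle forms passed the 2-fold test on their own side, beside 10.6% and 5.9% of all genes in the same directions. Glycogen phosphorylase had Pygl at 10.48, 10.15 and 10.11 on the liver arrays and 5.92, 5.94 and 5.85 on the quadriceps arrays and Pygm at -8.21. Glycogen synthase had Gys2 at 11.60, 11.82 and 11.81 on the liver arrays and 4.67, 4.76 and 4.87 on the quadriceps arrays and Gys1 at 11.46, 11.43 and 11.64 on the quadriceps arrays and 6.89, 6.73 and 7.01 on the liver arrays. Since the pairs were listed for their known tissue bias, the counts describe how far these arrays carry it.

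The same held for the glucose carriers Slc2a2 (4.91) and Slc2a4 (-4.84), for pyruvate kinase (Pklr 4, Pkm -5.02) and for fructose bisphosphatase (Fbp1 8.03, Fbp2 -3.19). Acetyl-CoA carboxylase, whose product feeds synthesis in one form and restrains oxidation in the other, had Acaca at 1.98 and Acacb at -1.87. The adenine nucleotide carriers Slc25a5 and Slc25a4 differed by 2.67 and -6.75, and the elongation factors Eef1a1 and Eef1a2 by 2.24 and -5.84. For Eef1a1 the lower tissue was still at 11.56, 11.38 and 11.40, whereas Eef1a2 lay at 6.60, 6.63 and 6.58 in liver. In phosphofructokinase the liver form Pfkl differed by 1.14 (SE 0.078) and did not pass the 2-fold test, while Pfkm did (-5.09 (SE 0.082)).

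In 4 pairs the forms were not called in opposite directions. Ckb, the creatine kinase of brain and many tissues, was slightly higher in quadriceps (-0.23), in the same direction as Ckm (-7.73). Cox7a2 was not called (-0.11) beside Cox7a1 (-5.79). Arg2 was dim in both tissues (0.52) beside Arg1 (6.46). Car3, a carbonic anhydrase known from slow muscle, adipocytes and liver, lay at 13.33, 12.47 and 12.66 on the liver arrays and 13, 12.51 and 12.65 on the quadriceps arrays; the groups overlapped and it was not called (0.10 (SE 0.21)).

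**Figure D5:**
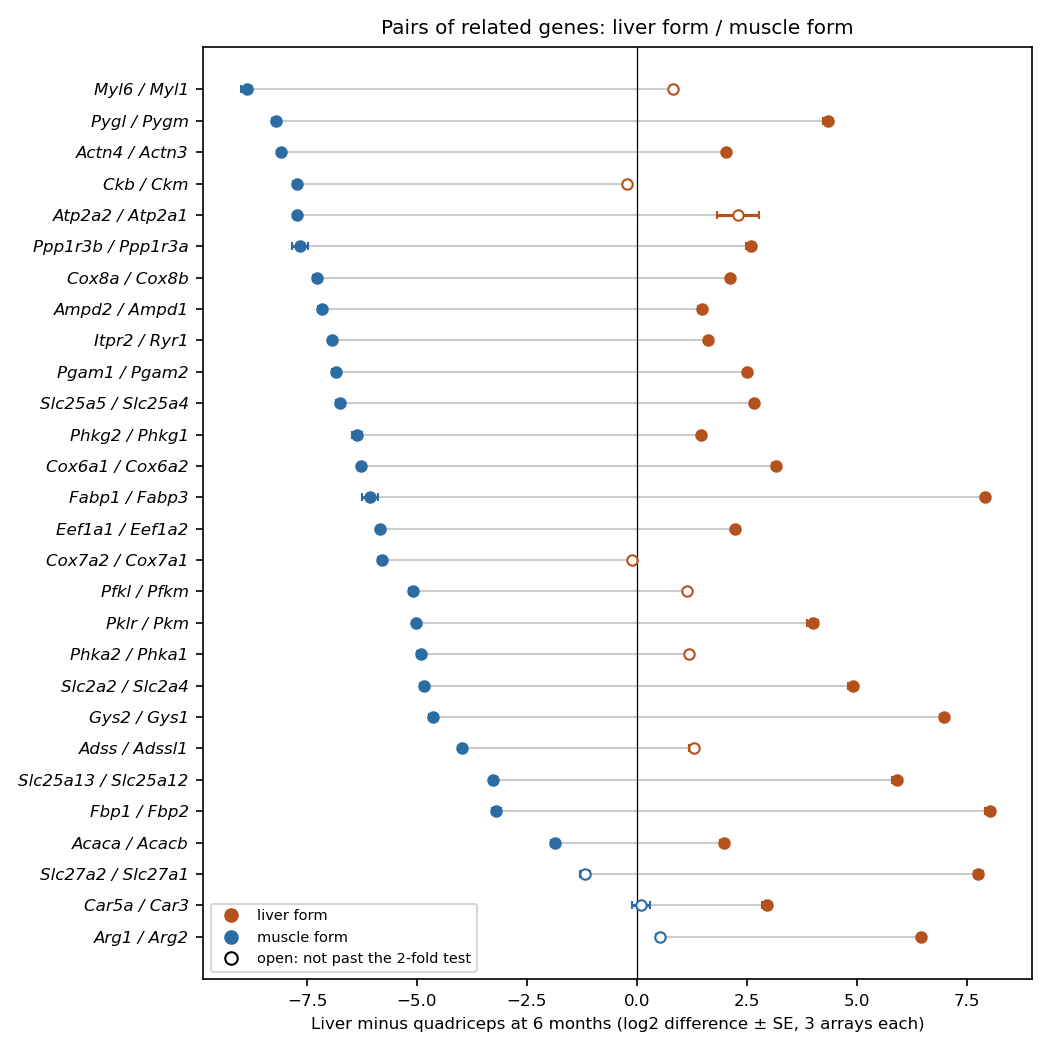
Tissue difference with its SE for both genes of the 28 measured pairs of related genes. The liver form is in orange and the muscle form in blue, with open points where the 2-fold test was not passed. In 24 pairs the points fell on opposite sides of 0, and the liver form of calcium pump, Atp2a2, had the widest error.

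Housekeeping machinery differed little. Of 41 ribosomal protein genes only Rpl3l passed the 2-fold test. Rpl3l, a form of Rpl3 made in striated muscle, lay at 10.67, 10.69 and 10.61 on the quadriceps arrays and 5.19, 4.95 and 4.92 on the liver arrays (-5.64 (SE 0.087)). The list's median was 0.13, and it turned to -0.11 with quantile normalization, so the others have no settled direction. None of 34 proteasome genes passed the 2-fold test (median -0.11). The 3 subunits of the immunoproteasome, Psmb8 (0.69), Psmb9 (0.98) and Psmb10 (0.80), were called higher in liver. The endoplasmic reticulum and secretory path, which loads plasma proteins for export, stood apart from this, with 17 of 35 genes past the 2-fold test in liver and none in quadriceps (median 1.22). Pdia4 and P4hb, which form disulphide bonds, differed by 3.73 and 2.71, and Sec61a1, the channel into the reticulum, by 2.47.

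The heat shock list split by family, and its median of -0.43 was -0.04 without quadriceps replicate 3. The small heat shock proteins of muscle, Hspb7 (-5.48), Cryab (-4.97), Hspb6 (-3.94), Hspb2 (-2.72) and Hspb3 (-2.68), and Hspa1l (-2.69), passed the 2-fold test in quadriceps. Hsp90aa1 (2.01), the co-chaperone Dnaja1 (1.93) and the mitochondrial chaperonin Hspd1 (1.51) passed it in liver. Hspb7 lay at 10.49, 11.24 and 12.33 on the quadriceps arrays and 5.94, 5.71 and 5.97 on the liver arrays and was highest on quadriceps replicate 3. Of 18 clock genes 2 passed the 2-fold test, beside 16.5% of all genes: Hlf in liver (2.11) and Bhlhe41 in quadriceps (-3.29). Bhlhe41 was dim in liver, and its difference against the dim level was -2.13. Bhlhe40, Cry1, Dbp, Nfil3 and Noct were not called. In the insulin and IGF path Grb14 (2.16) and Ppp1r3b (2.59) passed it in liver and Igf1r in quadriceps (-1.36, from 7.98, 8.07 and 8.21 on the quadriceps arrays and 6.56, 6.87 and 6.76 on the liver arrays). Igf1r lost the 2-fold test without liver replicate 1 or quadriceps replicate 2 or 3, and Irs1 and Irs2 were not called.

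Among genes with differences under 0.25, the 10 with the highest means were Baiap2l1, Rn7sk, Fth1, Atp5d, Ndrg2, Ldha, Rps6, Ube2d3, Rpl10 and Serinc3. Fth1, ferritin heavy chain, lay at 13.58, 13.54 and 13.59 on the liver arrays and 13.69, 13.70 and 13.72 on the quadriceps arrays, and Ldha, lactate dehydrogenase A, at 13.27, 13.42 and 13.37 on the liver arrays and 13.55, 13.47 and 13.42 on the quadriceps arrays. Ldha thus stood near the same level in both tissues, while Ldhb differed by -3.04, from 8, 9.02 and 10 on the quadriceps arrays and 5.97, 5.77 and 6.17 on the liver arrays, highest on quadriceps replicate 3. Without that array Ldhb differed by -2.54. Directions of these 10 changed with the scaling of the arrays and none is claimed.

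Other cell types of the tissues were followed by their markers. Of 11 markers of the sinusoidal endothelium of liver 10 passed the 2-fold test in liver (median 2.77), led by Clec4g (10.58, 10.46 and 10.63 on the liver arrays and 5.94, 5.84 and 5.74 on the quadriceps arrays) and Dnase1l3 (4.60). General endothelial markers had a median of -0.01, or -0.30 with quantile normalization. Of 18 of them, Plvap passed the test in liver (1.53; not with quantile normalization) and Emcn in quadriceps (-1.52). Of 12 markers of Kupffer cells, the resident macrophages, 5 passed in liver, among them Cd5l (4.27), Vsig4 (4.27) and Clec4f (2.49). With dim values set to the dim level, Cd5l differed by 2.69 and Vsig4 by 3.67. The Kupffer cell list also holds C6, which hepatocytes make. Among 18 lymphocyte markers only Jchain passed it (1.41), just inside the threshold (limma adjusted p of 0.046 for the 2-fold test), and its liver level was 5.42, 5.98 and 5.87, below the dim level. Leaving out liver replicate 2 or 3 or any quadriceps array ended its 2-fold call, as did quantile normalization, cyclic loess, centring, the block for the replicate number and the fit over 12 arrays.

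Stellate cells of liver were represented by Lrat (3.32) and Hgf (3.47), both past the 2-fold test in liver. Des and Rgs5, also on that list, passed it in quadriceps; Des encodes desmin of muscle fibres (-6.41) and Rgs5 marks pericytes (-2.34). Of 23 fibroblast and matrix genes 21 were called higher in quadriceps, beside 28.1% of all genes. The 2-fold test was passed there by 8 (7 without quadriceps replicate 3), beside 5.9% of all genes, led by Gsn (-3.89), Dpt (-3.67) and Fmod (-3.63). Fn1, fibronectin, which hepatocytes secrete into plasma, passed it in liver at 13.09, 13.17 and 13.06 on the liver arrays and 10.25, 10 and 9.96 on the quadriceps arrays. Of 14 adipocyte markers 9 were called higher in quadriceps and 3 in liver, beside 28.1% and 41.6% of all genes. The 2-fold test was passed in quadriceps by 4, or 6 without replicate 3, and Adipor2, an adiponectin receptor, passed it in liver (1.90). Cidec, a lipid droplet protein, was among those called higher in liver (1.89). Fabp4, which endothelium also makes, differed by -3.75 (SE 0.13) and Adipoq by -4.05 (SE 0.46), or -4.72 without replicate 3. Adipoq was dim in liver, and its difference against the dim level was -2.30 (at least 4.93-fold higher in quadriceps). Alas2, the heme synthesis enzyme of red blood cells, lay at 9.67, 9.29 and 9.43 on the liver arrays and 6.22, 6.03 and 5.96 on the quadriceps arrays. Markers of the exocrine pancreas, which borders the liver, had none of 8 past the 2-fold test and list means of 6.20 to 6.40 on the liver arrays and 5.81 to 5.90 on the quadriceps arrays.

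The tissue difference was then looked up in the arrays of 24-month mice, which entered none of those fits, though they helped to choose the probe set of each gene. There limma called 13597 genes (68.3%) at an adjusted p of 0.05. All 3277 genes past the 2-fold test at 6 months differed in the same direction at 24 months, and all but 1 were called there. The exception was Lepr, the leptin receptor, at 7.42, 9.28 and 8.98 on the liver arrays and 5.64, 5.36 and 5.58 on the quadriceps arrays at 6 months (3.03) and 0.78 at 24 months. Among these 3277 genes the median absolute change of the difference between ages was 0.163. Of all 19920 genes, those near 0 included, 17258 differed in the same direction at both ages. Over all these genes, which are not independent replicates, Pearson r between the differences at the 2 ages was 0.984. Alb differed by 4.75 at 24 months, Myh4 by -8.48 and Tdo2 by 8.26. Single 24-month arrays stood apart. Alb lay at 11.91, 8.60 and 7.58 on the 24-month quadriceps arrays, and Apoa1 at 9.30, 6.96 and 6.64. The exocrine pancreas markers had list means of 6.668, 9.845 and 6.294 on the 24-month liver arrays, highest on replicate 2. The source of these values was not tested.

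A change of the tissue difference with age was called for 3 genes (0.0151%), Mettl21c, Sel1l3 and Il1a, where 3946 genes had an unadjusted p under 0.05. Mettl21c, a methyltransferase of muscle, differed by -5 at 6 months and -3.98 at 24 months, Sel1l3 by 1.14 and 0.07, and Il1a, interleukin-1 alpha, by 3.90 and 2.74. The count hung on single arrays: it was 1462 without 24-month liver replicate 3, 48 without 6-month liver replicate 1, 10 without 6-month quadriceps replicate 1, 7 without 24-month liver replicate 1, 1 without 6-month or 24-month quadriceps replicate 3, and 0 without 6-month quadriceps replicate 2 or 24-month quadriceps replicate 1 or 2.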

How the data were processed

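Total RNA was hybridised to Affymetrix arrays after whole-transcript amplification, per the labels' protocols. The authors deposited log2 expression values, 1 per probe set and array, processed with RMA per the submitters' processing notes, which give no version. RMA normalizes arrays together, so shifts common to most genes can be removed or shared between tissues. Of 28944 probe sets, 21789 had 1 gene symbol in the platform annotation, 1621 several and 5534 none; only the first were used. Symbols were updated for 23 through RefSeq names (GRCm38.p6). A gene's probe set was the one with the highest mean over the table's 12 arrays, which left 19920 genes; of 1015 with several probe sets, 2 had sets opposed by 2-fold or more.

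Liver and quadriceps at 6 months (3 arrays each) were compared by lmFit and eBayes of limma 3.58.1 under R 4.3.3 (two-sided tests, Benjamini-Hochberg over all genes, threshold 0.05), and with its treat function at a minimum log2 difference of 1, the 2-fold test. The same fit was made for 24 months, and the change with age was an interaction term over 12 arrays. With 3 arrays a group an exact permutation test of a single gene could not reach the threshold, so single genes rest on these fits. The number of arrays limits the precision. Data were simulated with independent normal noise at limma's SD for each gene. There the 6-month fit on 19920 genes recovered 100 of 100 genes changed by 1 log2 unit and called 14 of 19720 unchanged ones. The 2-fold test recovered 99 of 100 changed by 2 units and called 0 of 100 changed by 1. The interaction recovered 96 of 100 changed by 1 unit and called 8 unchanged. Such noise holds no outlying arrays. The recovery of the interaction thus does not carry over to the real arrays, where its count ran from 0 to 1462 with 1 array left out. No identical arrays were found.

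The genes compared, the gene lists and the 39 pairs were chosen with earlier results of these data known. Named genes were the 15 with the largest difference each way past the 2-fold test, the 4 largest of each list and those past it against the list's side, all pairs, the 10 highest genes with differences under 0.25, the 5 of smallest p for a change with age, the sex-linked genes, and the 2 largest markers each way of other cell types; all others were named after their values were seen, among them the genes of quadriceps replicate 3. Alternatives were quantile, cyclic loess (3 iterations) and median scaling, genes left out whose mean reached the median of all values in neither tissue, other choices of probe set, an intensity trend with robust prior, all 12 arrays in one fit, weights per array, a block for the replicate number, a 4-fold minimum and each array left out. Heart and gastrocnemius, on another array type, were not used here.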

Additional observations from a re-analysis of the deposited data

Results flagged for a closer look

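The difference between liver and quadriceps changed with age in 3 genes by the test of the change itself (limma interaction over 12 arrays). Mettl21c changed by 1.02 (SE 0.12, adjusted p 0.020): its mean was 9.44 ± 0.11 in quadriceps at 6 months and 8.50 ± 0.072 at 24 months (SD, n = 3 each), and 4.44 ± 0.13 and 4.51 ± 0.060 in liver, where it was dim. Sel1l3 changed by -1.08 (SE 0.14, limma adjusted p 0.026): liver went from 9.41 ± 0.25 to 8.49 ± 0.051 and quadriceps from 8.27 ± 0.056 to 8.43 ± 0.015. Il1a changed by -1.16 (SE 0.15, limma adjusted p 0.026): liver went from 7.67 ± 0.16 to 6.80 ± 0.23, and quadriceps was dim at 3.77 ± 0.068 and 4.06 ± 0.029.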

How the results depend on the processing

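At 6 months the number of calls stayed within 1.5 times of 13895 in every setting run, and from 12873 to 13324 with 1 array left out; the 2-fold test gave 3109 to 3232 with 1 array left out. With the 4-fold minimum in its place, 1482 genes passed, 992 higher in liver and 490 higher in quadriceps. At 24 months, leaving out genes whose mean reached the median of all values in neither tissue gave 5341 calls higher in liver among 11525 genes tested; leaving out 1 array gave 12473 to 13993 calls. The change of the tissue difference with age depended on the setting: 10 genes with cyclic loess (5 positive, 5 negative), 203 with that filter (62 and 141), 159 with an intensity trend and robust prior (51 and 108), 5 with quantile normalization (3 positive) and 0 to 1462 with 1 array left out (0 to 791 positive, 0 to 671 negative). The replicate number as a block gave 0 genes for the change with age (0 positive, 0 negative), 13608 calls at 6 months and 3234 past the 2-fold test. Same-numbered arrays at 6 months correlated at -0.023, 0.0076 and 0.014, so the numbers were not taken as pairs. The causes were not tested, apart from fewer genes tested under the filter.

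Among values of named genes under these alternatives, 4132 kept their direction and side of the threshold, 18 gained the call, 16 lost it and 23 changed sign. Reversals concerned genes near 0. With the arrays centred on their median, Rps6 went to -0.06 and Noct to -0.01. With cyclic loess, Baiap2l1 went to 0.27, Rn7sk 0.33, Fth1 0.19, Atp5d 0.13, Ndrg2 0.12, Ldha 0.18, Ube2d3 0.15, Serinc3 0.12, Noct -0.09 and Uty -0.01. With quantile normalization, Car3 went to -0.09, Baiap2l1 0.13, Rn7sk 0.26, Fth1 0.00, Rps6 -0.02, Rpl10 -0.06, Noct -0.22 and Uty -0.14. The mean of all its probe sets gave Baiap2l1 1.36, so its probe sets disagree. With 1 array left out, Car3 ran from -0.16 to 0.28, below 0 without liver replicate 1 or quadriceps replicate 2.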
